A study of Mus musculus with 18 samples.

Results

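Jejunal enterocytes of mice gavaged with a pesticide mixture (ADI) were set against those of mice gavaged with flour of fresh, conventionally grown potatoes (PC), to see which gene changes relative to water-gavaged controls (Ctr) the exposures share and where they differ. The 3 ADI and 3 PC arrays are 6 of the 18 arrays of the series, chosen by their labels, and the 3 Ctr arrays serve as the common baseline. ADI mice received 9 pesticides of the conventional cropping scheme, each at its acceptable daily intake, the dose regulators regard as safe to consume every day. PC mice received 30 mg of potato tuber flour a day, made with the skin and suspended in water. Ctr mice received water. All were male BALB/cOlaHsd mice aged 8 weeks at the start, kept on the same chow and sampled on day 20, and 3 of the 12 mice of each group were used for RNA. The pesticides and their amounts are not named in the labels, and PC and ADI differ both in the vehicle (flour or solution) and in the pesticides given, which cannot be told apart here. Each array is the RNA of 1 mouse, read in 1 colour on an Agilent array. Of 6914 features, 5021 have a value on every array, and 43 of these carry one of the 51 gene names that the authors gave. The other 8 named genes (Apom, Bop1, Katnal2, Neil3, Plscr1, S100a14, Shank3 and Trbv13-1) have blanks on some arrays and are described only from the authors' deposited table. The authors chose the 51 genes from these same mice.

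Enterocytes are the absorptive cells of the gut lining and the first cells to meet swallowed compounds. Protein kinase A is held inactive by regulatory subunits such as Prkar1a until cyclic AMP binds them, while phospholipase C enzymes such as Plcb4 cleave a membrane lipid into second messengers downstream of G proteins. Ufm1 is a small ubiquitin-like protein that is attached to target proteins by its own enzymes, among them the conjugating enzyme Ufc1, and that pathway is known for its part in endoplasmic reticulum and ribosome quality control. The defining markers of the labelled cell type could be checked to a small extent only: of 11 enterocyte markers, Apoa1, an apolipoprotein of high-density lipoprotein, was the one with a name, and it read 16219, 11304 and 1886 on the ADI arrays, 1777, 6001 and 4447 on the PC arrays and 13296, 16287 and 17841 on the Ctr arrays. Of the markers of other cell types that a gut scrape can hold, the T cell marker Cd2 and the neuronal genes Sv2b and Nyap1 were measured. On the Ctr arrays Cd2 read 530, 445 and 970, Sv2b 8502, 10855 and 16868, and Nyap1 9847, 14434 and 17283. The 2 neuronal genes were thus of a brightness like that of Apoa1, and these values do not settle the cell type. Goblet, Paneth, enteroendocrine, stem, B, myeloid and stromal markers have no name in the files used here.

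The promoters of 4 genes on which the comparison turns are shown because they bear on the cyclic AMP and UFM1 genes and on the named gene that lay furthest below PC in ADI. They are RefSeq windows on GRCm38.p6, from 250 bases before to 50 after a transcript start, 5′ to 3′ on the strand of the gene. Capitals mark the cyclic AMP response element TGACGTCA, which reads the same on both strands, and the GC box GGGCGG on either strand. The windows and the motifs were chosen after the sequences were seen.
Prkar1a, chr11:109650699-109650998, + strand: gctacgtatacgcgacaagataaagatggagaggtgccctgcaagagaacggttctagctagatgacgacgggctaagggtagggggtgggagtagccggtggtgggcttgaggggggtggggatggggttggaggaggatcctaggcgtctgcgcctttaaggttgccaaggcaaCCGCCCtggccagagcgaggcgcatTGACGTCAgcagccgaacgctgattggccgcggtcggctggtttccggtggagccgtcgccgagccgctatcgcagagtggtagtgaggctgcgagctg
Ufm1, chr3:53863758-53864057, - strand: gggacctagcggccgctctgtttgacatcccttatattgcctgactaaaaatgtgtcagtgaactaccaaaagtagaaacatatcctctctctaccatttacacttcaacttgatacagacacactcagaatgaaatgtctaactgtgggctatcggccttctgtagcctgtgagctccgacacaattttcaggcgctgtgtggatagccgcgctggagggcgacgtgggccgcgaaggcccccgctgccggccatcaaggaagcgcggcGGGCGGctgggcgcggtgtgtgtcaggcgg
Ufc1, chr1:171294953-171295252, - strand: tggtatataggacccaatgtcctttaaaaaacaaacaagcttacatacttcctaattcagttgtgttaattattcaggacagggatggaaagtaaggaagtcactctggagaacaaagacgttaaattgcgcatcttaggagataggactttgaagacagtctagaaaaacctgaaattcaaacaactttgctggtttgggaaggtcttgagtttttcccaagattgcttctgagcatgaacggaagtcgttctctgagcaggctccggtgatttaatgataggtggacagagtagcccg
Noc4l, chr5:110653333-110653632, - strand: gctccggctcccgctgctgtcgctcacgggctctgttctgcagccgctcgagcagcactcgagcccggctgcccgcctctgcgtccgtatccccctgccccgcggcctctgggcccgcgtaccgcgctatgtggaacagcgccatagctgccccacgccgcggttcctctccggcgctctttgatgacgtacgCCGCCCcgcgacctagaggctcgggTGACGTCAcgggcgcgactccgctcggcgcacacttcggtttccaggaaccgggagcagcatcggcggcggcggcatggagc
The cyclic AMP element occurred once each in the Prkar1a and Noc4l windows, at positions 202 and 219, and in neither UFM1 pathway window. It occurred in 588 of 32851 RefSeq promoter windows (1.79%), and in 2 of the 6 windows listed for Prkar1a, of which the one shown was picked because it holds it. The GC box occurred once in the Prkar1a, Ufm1 and Noc4l windows and not in that of Ufc1, against 35.7% of all windows. A match of letters is a description and does not show that a factor binds there.

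The arrays differed in overall brightness before any gene was compared. Median intensity was 250, 147 and 37 on ADI1, ADI2 and ADI3, 45, 103 and 68 on the PC arrays, and 168, 184 and 256 on the Ctr arrays. The dimmest of these 9 was therefore an ADI array, as was the second brightest, and 25.6% of features on ADI3 read under 16, against 2.75% on ADI1. The median log2 intensity averaged 6.79 ± 1.42 in ADI and 6.09 ± 0.60 in PC (SD, n = 3 each), an excess of 0.70 in ADI (exact two-sided permutation test, p = 0.5, smallest possible 0.1), and 7.64 ± 0.32 in Ctr. ADI3 also stood apart by its pattern over features: Spearman's correlation with ADI1 was 0.78, the lowest of the 36 pairs, while with the PC arrays it was 0.89 to 0.93. With Ctr1, Ctr2 and Ctr3, ADI1 correlated at 0.97, 0.94 and 0.97, ADI2 at 0.94, 0.97 and 0.96, and ADI3 at 0.80, 0.81 and 0.85. The median was 0.94 over the ADI and Ctr pairs and 0.87 within ADI. These are descriptions over features that share the array's brightness. Values are therefore given on log2 intensity minus the median of the array ("centred"), and as deposited where this changes the picture. As deposited, the median feature was 0.64 higher in ADI than in PC, a value that depended on single arrays (0.08 without ADI1, 1.48 without ADI3). The part of brightness in each result was not tested beyond these settings.

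**Figure D1:**
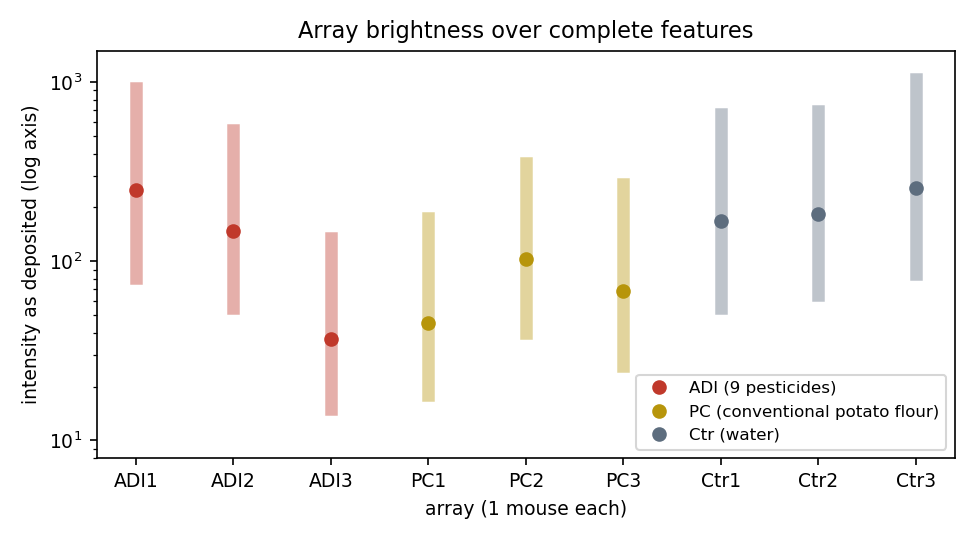
Median feature intensity of each ADI, PC and Ctr array (log axis), 1 point a mouse. ADI spans 37 to 250, wider than PC (45 to 103) and Ctr (168 to 256).

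**Figure D2:**
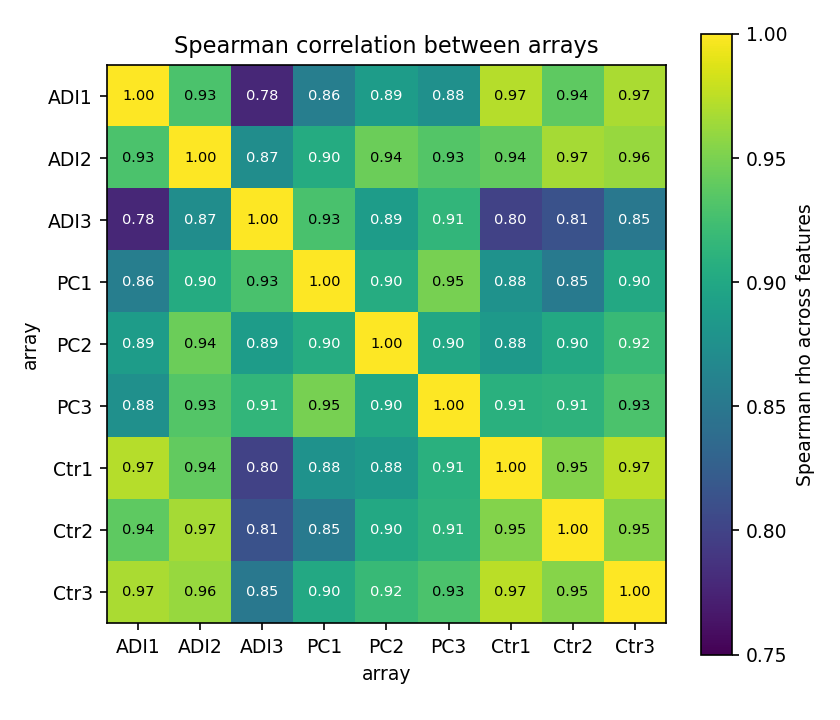
Spearman's correlation between every pair of the 9 arrays over 5021 features. The lowest pair is ADI1 with ADI3 (0.78), and ADI3 lies nearer the PC arrays (0.89 to 0.93).

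No feature differed between ADI and PC past the threshold: limma (Benjamini-Hochberg adjusted p under 0.05) called 0 of 5021 features (0%), and the smallest adjusted p was 1.00. At an unadjusted p under 0.05 there were 48 features (0.956%), 18 higher and 30 lower in ADI, and 0 of the 43 named genes were among them. That count was 2 as deposited and 91 in a fit on the ADI and PC arrays alone. The intervals below are wide, so the missed threshold does not show that the exposures act alike. In RNA of scraped tissue, a lower intensity can mean fewer cells of a type or less RNA per cell, which cannot be told apart. Of the 43 named genes, 24 were higher and 19 lower in ADI than in PC on centred values, but 38 were higher as deposited, against 4664 of all 5021 features. The spread within the exposed groups was of the size of the difference between them: the range over the 3 ADI mice exceeded the ADI minus PC difference for 41 of 43 named genes, and for 89.3% of all features.

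Prkar1a was the named gene that separated the exposures under both scalings. Its intensity was 11909, 8051 and 4060 in ADI mice, 1735, 2943 and 1484 in PC mice and 2457, 1436 and 6628 in Ctr mice. Every ADI mouse lay above every PC mouse, and as deposited the Ctr mice spread over both. On centred values Prkar1a averaged 6.04 ± 0.64 in ADI and 4.85 ± 0.41 in PC (SD, n = 3 each), a difference of 1.19 (95% interval -1.48 to 3.87, limma adjusted p = 1.00), or 1.89 as deposited. The centred Ctr values of 3.87, 2.96 and 4.69 lay below every ADI mouse. The centred difference from Ctr was 2.20 in ADI (95% interval -0.47 to 4.87) and 1.01 in PC (-1.67 to 3.68). As deposited it was 1.35 in ADI and -0.54 in PC, so the place of PC mice relative to Ctr turned with the scaling. ADI lay above PC without overlap in 2 of the 43 named genes (Prkar1a and Marveld1) and in 2.05% of all features. As deposited, Prkar1a was the 1 such gene, against 1.12% of all features.

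The UFM1 pair stood above PC to a like extent. Ufm1 read 32422, 8607 and 2953 in ADI mice, 3628, 3833 and 1374 in PC mice and 4578, 1802 and 11369 in Ctr mice. Ufc1 read 21600, 4147 and 792 in ADI mice, 1367, 1737 and 561 in PC mice and 3783, 1819 and 8321 in Ctr mice. For both genes the ADI and PC mice overlapped and ADI1 was by far the brightest. The centred ADI minus PC difference was 1.11 for Ufm1 (95% interval -1.79 to 4.01) and 1.21 for Ufc1 (-1.53 to 3.94), both with a limma adjusted p of 1.00. Ufc1 was 0.60 without ADI1, and Ufm1 was 0.63 without PC3. As deposited the differences were 1.81 for Ufm1 and 1.91 for Ufc1. The centred difference from Ctr was 1.89 in ADI and 0.78 in PC for Ufm1, and 0.95 in ADI and -0.26 in PC for Ufc1. As deposited it was 1.05 in ADI and -0.77 in PC for Ufm1, and 0.10 in ADI and -1.81 in PC for Ufc1, so the place of Ufm1 in PC mice relative to Ctr turned with the scaling. Of the 8 genes on the UFM1 conjugation list these 2 were measured, and 0 were called.

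Chd4, the helicase of a nucleosome remodelling and deacetylase complex, was 0.86 higher in ADI (95% interval -1.55 to 3.27), but this rested on 1 mouse. It read 1196, 80 and 13 in ADI mice, 46, 30 and 35 in PC mice and 402, 119 and 534 in Ctr mice, so as deposited ADI1 lay above every other mouse and ADI3 below every other. Without ADI1 the difference was -0.29, and without ADI3 it was 1.59. Marveld1, a MARVEL-domain membrane protein, was 0.42 higher in ADI (95% interval -0.84 to 1.67). Every ADI mouse exceeded every PC mouse on centred values, but barely, with ADI3 at 6.290 and PC3 at 6.284. As deposited the groups overlapped.

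Noc4l and Aebp2 lay furthest on the other side. Noc4l, a nucleolar protein of small ribosomal subunit assembly, read 1115, 5295 and 19098 in ADI mice, 12373, 7338 and 13378 in PC mice and 3122, 2557 and 10187 in Ctr mice. Aebp2, a cofactor of Polycomb repressive complex 2, read 779, 3938 and 15679 in ADI mice, 9187, 5534 and 9684 in PC mice and 2358, 1449 and 6758 in Ctr mice. In both genes ADI1 was the lowest and ADI3 the highest of all 9 arrays, although ADI3 was the dimmest array. The centred ADI minus PC difference was -1.85 for Noc4l (95% interval -5.61 to 1.92) and -1.82 for Aebp2 (-5.65 to 2.01), with limma adjusted p of 1.00. It was -0.20 and -0.12 without ADI1, and -3.63 and -3.67 without ADI3. The pair belongs to a small cloud of 55 features that stood over 1.5 log2 units above Ctr in the mean of both exposures and over 1.5 below PC in ADI (limits drawn after the values were seen). In 54 of the 55 the ADI arrays ran in the order ADI1, ADI2, ADI3 from low to high. The median difference over the cloud, which the limits fix in sign, was -2.16, and it was -0.12 without ADI1 and -4.35 without ADI3.

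Recql4, a RecQ DNA helicase, and Crk, an adaptor protein of tyrosine kinase signalling named here because its groups did not overlap, lay below PC in every ADI mouse on centred values. Such genes were 2 of 43, against 4.24% of all features, and 0 of 43 as deposited (0.0398%). Crk read 2100, 1188 and 304 in ADI mice, 476, 1064 and 768 in PC mice and 1069, 1084 and 1993 in Ctr mice. Centring brought these to 3.04 ± 0.03 in ADI, 3.42 ± 0.07 in PC and 2.73 ± 0.21 in Ctr (SD, n = 3 each). The ADI minus PC difference for Crk was -0.38 centred and 0.32 as deposited, so its direction turned with the scaling, while for Recql4 it was -0.99 and -0.29. The remaining named genes with the smallest p on each side were Glcci1, a glucocorticoid-induced gene, higher by 0.53, and, lower, Osbpl9 (-0.79), Slc10a1 (-0.72) and the potassium channel Kcnd1 (-0.47). None came near the threshold, with an unadjusted limma p from 0.38 (Osbpl9) to 0.56 (Slc10a1). As deposited the differences were 1.23 for Glcci1, -0.09 for Osbpl9, -0.02 for Slc10a1 and 0.23 for Kcnd1. Slc10a1, the bile acid transporter of liver cells, was 0.13 without ADI1 and -2.12 without ADI3.

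**Figure D3:**
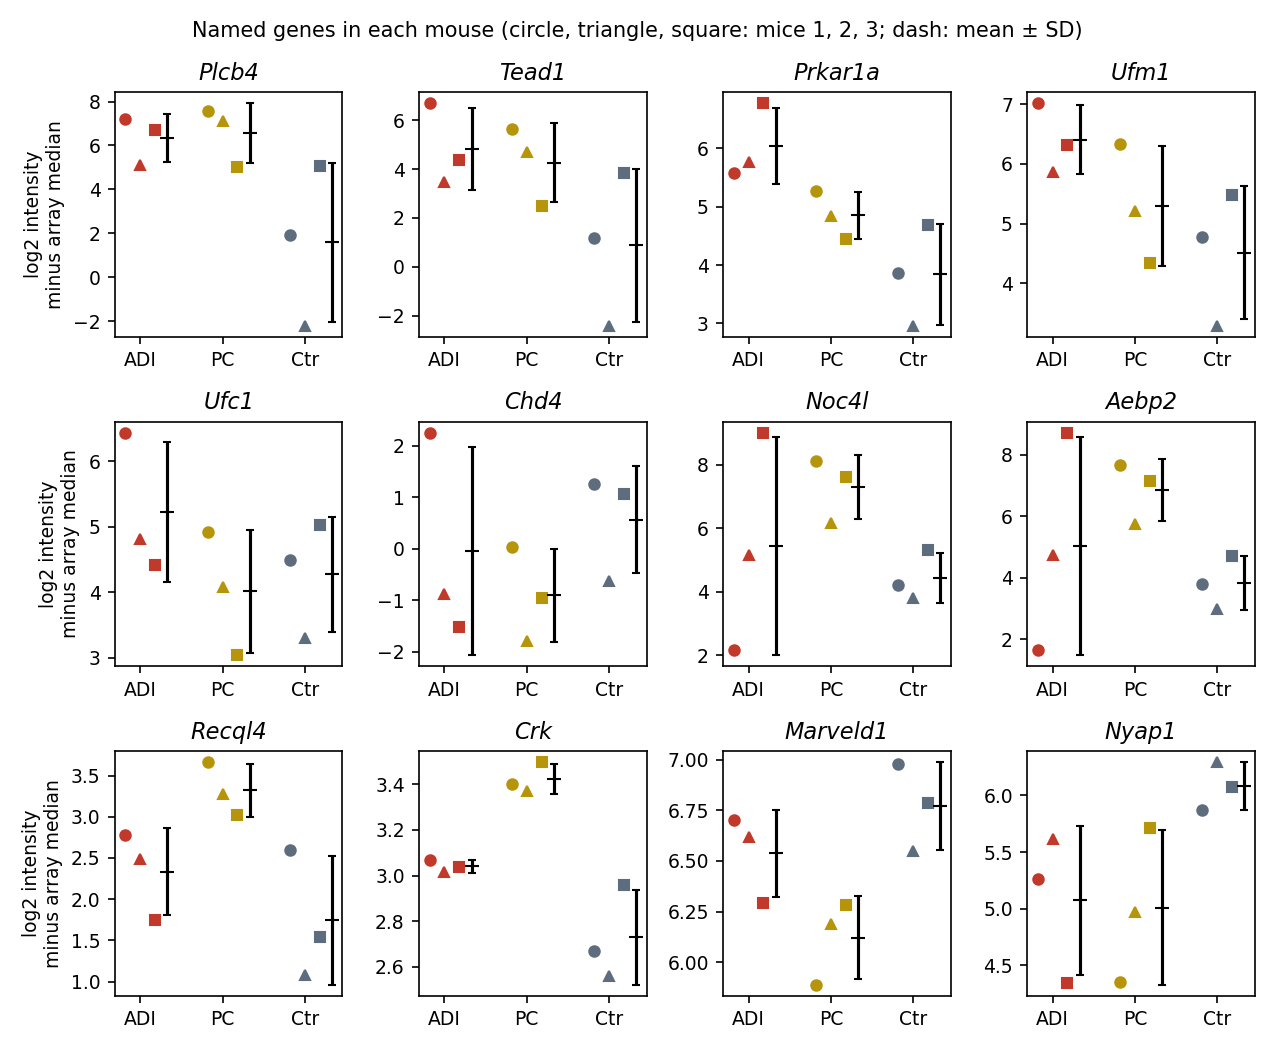
Centred log2 intensity of the named genes on which the text turns, 1 point a mouse, ADI left of PC and Ctr, with bars at the mean ± SD (n = 3). On this centred scale Prkar1a and Crk separate ADI from PC in opposite directions (as deposited Crk overlaps, at 0.32), and Noc4l and Aebp2 spread over the whole scale within ADI.

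The change that the exposures share was tested in 1 contrast, the mean of ADI and PC minus Ctr. Limma called 0 of 5021 features (0%), with a smallest adjusted p of 0.912 on centred values. At an unadjusted p under 0.05 there were 171 features (3.41%), 71 higher and 100 lower, and 2 of the 43 named genes were among them, Plcb4 and Tead1. Each exposure alone against Ctr also gave 0 calls of 5021 (0%). At an unadjusted p under 0.05 there were 41 features for ADI (0.817%), with 2 of 43 named genes (Plcb4 and Tead1), and 269 for PC (5.36%), with 2 of 43 (Plcb4 and Tead1). In fits on the groups compared alone these counts were 471 for the shared change, 152 for ADI and 1202 for PC, and as deposited they were 19, 2 and 41. Both comparisons with Ctr share the same 3 control mice, so similar values in ADI and PC can come from those mice.

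Plcb4 read 36613, 5063 and 3881 in ADI mice, 8527, 14231 and 2181 in PC mice and 630, 40 and 8485 in Ctr mice. Ctr2 was nearly dark while Ctr3 overlapped the exposed mice. The centred mean was 6.34 ± 1.09 in ADI, 6.56 ± 1.37 in PC and 1.59 ± 3.64 in Ctr (SD, n = 3 each). The shared change was 4.86 (95% interval 2.46 to 7.26, limma adjusted p = 0.912), or 3.66 as deposited. ADI minus PC had no settled sign, at -0.22 centred, 0.48 as deposited and 0.39 centred without ADI2. Without Ctr2 the shared change was 2.97, and without Ctr3 it was 6.60 with an adjusted p of 0.0446. Tead1, the DNA-binding partner of the Hippo pathway effector Yap, ran alongside: 25881, 1614 and 755 in ADI mice, 2207, 2699 and 378 in PC mice and 379, 35 and 3701 in Ctr mice. Its shared change was 3.67 (95% interval 1.13 to 6.22, limma adjusted p = 0.912), or 2.04 without Ctr2 and 5.16 without Ctr3. ADI minus PC for Tead1 was 0.57, and -0.36 without ADI1.

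Card14, a scaffold of NF-kB signalling, Tmem145, the activin receptor Acvr1b and the splicing factor U2af2 followed, at 1.58, 1.61, 1.75 and 1.60 above Ctr on centred values, but 0.38, 0.41, 0.55 and 0.40 as deposited. Each rested in good part on ADI3: without it the centred shared change was 0.98, 0.93, 1.08 and 0.94. Acvr1b read 62, 141 and 295 in ADI mice, 148, 214 and 71 in PC mice and 56, 67 and 204 in Ctr mice. Below Ctr were Nyap1, Acat3, an acetyl-CoA acetyltransferase, and Thap1, a zinc-finger protein, at -1.04, -1.08 and -0.99. Sv2b, a synaptic vesicle protein, the class I histocompatibility gene H2-K2 and the membrane adaptor Ank2 lay at -0.48, -0.76 and -0.73. As deposited, these 6 lay at -1.68 to -2.28, where the median feature lay at -1.23. Nyap1 read 9584, 7202 and 750 in ADI mice, 918, 3230 and 3557 in PC mice and 9847, 14434 and 17283 in Ctr mice, so that all exposed mice lay below all controls, although ADI1 came close. Such complete separation below Ctr was seen for 9 of 43 named genes on centred values, against 5.12% of all features, and for 3 (H2-K2, Nyap1 and Sv2b) as deposited, against 3.62%. Since the authors picked the genes on these mice, that count carries no weight of its own. Above Ctr the 1 such gene was Crk on centred values (1.59% of features), and 0 as deposited (0.0199%).

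**Figure D4:**
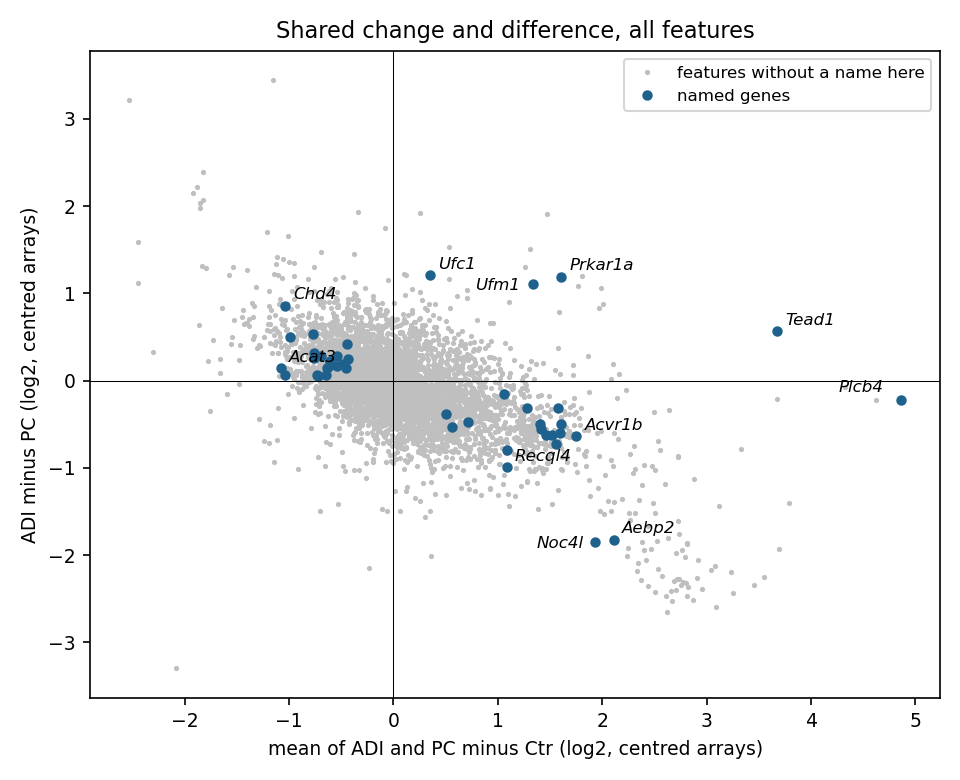
Each of 5021 features, by its shared change (x axis, mean of ADI and PC minus Ctr, log2, centred) and by its ADI minus PC difference (y axis). Plcb4 and Tead1 lie far to the right near 0 on the y axis, Prkar1a, Ufm1 and Ufc1 lie above it, and Noc4l and Aebp2 sit at the edge of the cloud at lower right.

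The authors' deposited table gives log2 fold changes per mouse for the same 51 genes, with 22 genes listed for ADI and 27 for PC. Both lists of the authors' deposited table held 15 genes, which is 68.2% of the ADI list and 55.6% of the PC list. Plcb4, Tead1, Aebp2 and Noc4l were higher in both exposures in the authors' deposited table, and 11 genes were lower in both: Ank2, Apoa1, Apom, H2-K2, Katnal2, Marveld1, Nyap1, Pde4b, Shank3, Sv2b and Trbv13-1. The authors' deposited table listed 7 genes for ADI alone, with mean log2 fold changes of 2.09 for Prkar1a, 2.03 for Ufm1, 1.55 for Chd4, 1.19 for Ufc1, 0.97 for Uhrf1bp1, -1.02 for Acat3 and -1.03 for Septin8. The 12 genes listed for PC alone were all lower in the authors' deposited table: Alkbh2, Bmf, Bmp7, Chd3, Gdf1, Glcci1, H2al2b, Nat2, Plscr1, S100a14, Thap1 and Tti2. They include the DNA repair enzyme Alkbh2, the apoptosis regulator Bmf, the growth factors Bmp7 and Gdf1 and the drug-metabolising enzyme Nat2.

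The ADI entries do not all meet the limit in the header. It states that folds between 0.5 and 2 were set to 0, yet 27 of 66 nonzero ADI cells of the authors' deposited table lie in that interval, against 0 of 81 PC cells. Held to the stated limit in all 3 mice, a count made after the data were seen, 10 ADI genes and 27 PC genes remained, with 6 in both: Apom, Noc4l, Nyap1, Plcb4, Sv2b and Tead1. A 0 in either list means a fold inside the limit or not entered, not the absence of a difference, so "listed for 1 exposure" is not a test of the difference. For the 11 genes lower in both, ADI was nearer 0 than PC in every mouse for 10 (Apom overlapped), with a median ADI minus PC difference of 1.02 in the authors' deposited table. For Marveld1, as an example, the authors' deposited table has -0.87, -0.82 and -0.99 in ADI mice and -2.45, -2.21 and -2.27 in PC mice. Every PC entry lies beyond the limit while many ADI entries do not, which by itself favours that direction. On centred intensities, those of the 11 with a value on every array were higher in ADI by 0.062 (Nyap1) to 0.42 (Marveld1). Of the 4 higher genes, Plcb4 was above PC in every ADI mouse (2.88 in ADI against 2.41 in PC on average in the authors' deposited table), Noc4l and Aebp2 were below it, and Tead1 overlapped.

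**Figure D5:**
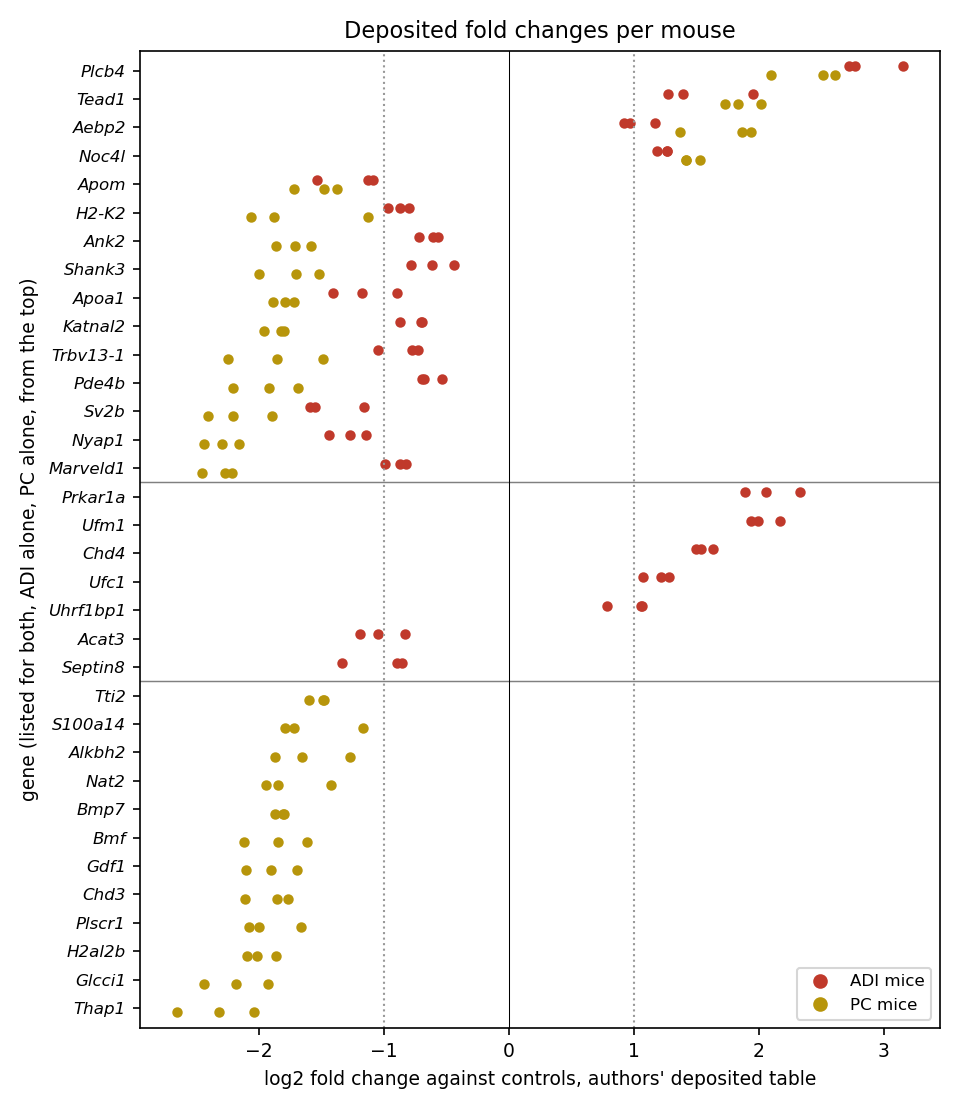
Log2 fold changes of the authors' deposited table, 1 point a mouse, ADI above PC for each gene with an entry in either. The genes lower in both exposures, other than Apom, lie nearer 0 in ADI than in PC, which the limit favours, as it holds for all PC but not all ADI entries. Dotted lines mark the header's limits of 0.5 and 2. Values of 0 are not drawn, so a gene listed for 1 exposure has points of that exposure alone.

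The table and the intensities could be set side by side for the genes on complete rows. The authors' values varied far less between mice: over 18 ADI genes the median range across 3 mice was 0.27 in the authors' deposited table and 1.24 on centred intensities, and over 21 PC genes it was 0.41 and 0.79. Noc4l shows it, with 1.27, 1.19 and 1.26 in ADI mice in the authors' deposited table beside the intensities of 1115 to 19098 above. The sign of the group mean relative to Ctr was the same for 17 of the 18 ADI genes and for 21 of 21 PC genes. The exception by mean was Chd4, at 1.55 in ADI in the authors' deposited table and at -0.61 for ADI minus Ctr on centred intensities. Single mice could differ where the means did not. ADI1 was at 1.27 for Noc4l and 0.92 for Aebp2 in the authors' deposited table. Its centred intensities of 2.16 and 1.64 lay below every Ctr array. How the authors scaled the arrays before taking folds is not given in the sources used here. Of the 17 measured genes that the authors listed as lower in PC, all 17 had a higher centred intensity in ADI than in PC, with a median of 0.23 (range 0.061 to 0.53), or 0.93 as deposited where the median feature lay at 0.64. The choice of those genes on the same PC arrays favours that direction. Among those also listed for ADI, leaving out a single array turned the centred sign for Ank2, Nyap1, Sv2b, H2-K2 and Pde4b, but not for Apoa1 or Marveld1. Of those listed for PC alone, Glcci1 kept its sign. The others were not followed in this way, so their signs are not shown to hold. The 15 measured genes listed for neither exposure all lay below PC in ADI on centred values (median -0.56), but 12 of the 15 lay above it as deposited, so no direction holds for them across scalings. ADI3 was the highest ADI array in 12 of these 15 on centred values.

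By function, the lists described here had 1 to 4 measured members each, and 0 were called in any. Their median ADI minus PC difference ran from 1.16 for UFM1 conjugation (Ufc1 and Ufm1) to -1.23 for ribosome biogenesis and splicing (Noc4l and U2af2), on centred values where the median over all features was near 0. The second messenger list held Plcb4 (-0.22), Prkar1a (1.19) and Rasgef1a (-0.56), with a median of -0.22 and 1 of 3 higher in ADI. Rasgef1a is an exchange factor for Ras-family proteins and belongs to neither phospholipase C nor protein kinase A. Without it the list holds 1 gene on each side, so its median gives no direction. Immune genes (Card14, Cd2, Csf2 and H2-K2) had a median of -0.23, with 1 of 4 higher. Lipid and bile acid genes (Acat3, Apoa1, Slc10a1 and Uhrf1bp1) split evenly, with a median of -0.08. The medians were 0.23 for chromatin genes (Aebp2, Chd3 and Chd4), 0.33 for apoptosis genes (Bmf and Thap1), 0.12 for neuronal genes (Nyap1 and Sv2b) and -0.04 for Hippo and activin genes (Acvr1b and Tead1). Nat2 was the 1 measured xenobiotic metabolism gene of 13 on the list, at 0.17. Among features without a name, numbers 17186 and 20284 were higher in ADI by 2.22 and 1.22, and numbers 33921 and 37839 lower by 1.26 and 1.38 (ADI minus PC -1.26 and -1.38), each with a limma adjusted p of 1.00.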

How the data were processed

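Enterocyte RNA was measured on 1-colour arrays. Per the submitters' processing notes, arrays were read with Agilent Feature Extraction; their background step is not given in the sources used here. Intensity values, as deposited by the authors, are linear, run from -6 to 65501 in the rows used and show no scaling between arrays. Per the file headers, the authors' table gives log2 fold changes for single mice after a filter on fold. Rows with a blank (1893 of 6914) were left out. Values were set to at least 1 (430 cells were at or below 0), log2 transformed and centred on the array median. Limma 3.58.1 (R 4.3.3, eBayes, no trend) estimated a mean per group from all 18 arrays, with Benjamini-Hochberg adjustment at 0.05. P-values and intervals rest on a spread pooled over the 3 mice of every group in the series, not on the mice compared alone. The number of arrays limits precision. The fit was tested on simulated data.

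Members, lists and tests were chosen with earlier results of these data known. Named genes are, per contrast, up to 12 higher and 12 lower past the threshold or, where none passes, 6 a side with the smallest p, plus genes listed for both exposures in the authors' table, and at most 2 unnamed features a side. Further genes, among them Crk and those listed for 1 exposure, were chosen after their values were seen. Names come from the authors' table, and all 51 matched a RefSeq symbol. Deviations of same-numbered mice correlated at -0.21, 0.23 and 0.030 between ADI and PC, and at 0.41, 0.52 and 0.31 between ADI and Ctr. Between PC and Ctr the values were 0.23, 0.15 and -0.13. Mice of different numbers were not compared in this way, so a pairing by number is not shown. Alternatives comprised 10 other settings and 9 fits without 1 array. Figures used matplotlib 3.10.9.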

Additional observations from a re-analysis of the deposited data

How the results depend on the processing

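Limma called 0 features for ADI minus PC under all 10 other settings and all 6 fits without 1 ADI or PC array. A replicate block also gave 0 calls in each of the 4 contrasts, and changed no other call. For the shared change, fits without 1 array called 0 to 4 features: 1 without Ctr2 (unnamed 12327) and 4 without Ctr3 (Plcb4 at 6.60 and unnamed 16439, 20321 and 41251). They called 0 to 1 for ADI minus Ctr and 0 to 1 for PC minus Ctr, again without Ctr2. Array weights, whose estimation did not converge, called 969 for PC minus Ctr, and the cause was not tested. Features with ADI above PC without overlap numbered 103 centred, 56 as deposited and 208 over all rows. Those with ADI below numbered 213 centred and 2 as deposited. Without 1 array, which leaves fewer arrays to compare by construction, they were 179 to 701 and 318 to 818. As deposited, the ADI minus PC sign reversed for Kcnd1 (0.23), Crk (0.32), Plcb4 (0.48) and further named genes. These include Card14 (0.39), Tmem145 (0.21), Acvr1b (0.07), U2af2 (0.10) and Rasgef1a (0.14). Of the 43 named genes, 24 were higher in ADI centred and 38 as deposited. The other settings were followed for the ADI minus PC genes with the smallest p and those listed for both exposures. Among these the sign reversed without ADI1 for Chd4 (-0.29, against 1.59 without ADI3), Slc10a1 (0.13, against -2.12 without ADI3) and Tead1 (-0.36). It also reversed for Tead1 without PC3 (-0.33), and for Plcb4 with array weights (0.38), over all rows (0.02) and without ADI2 (0.39), PC1 (0.28) or PC2 (0.05). Ank2 reversed without ADI1 (-0.09), ADI2 (-0.13), PC1 (-0.13) or PC2 (-0.02), and Nyap1 without ADI1 (-0.03), ADI2 (-0.21) or PC1 (-0.27). Sv2b reversed with array weights (-0.13) and without ADI3 (-0.07) or PC2 (-0.06), H2-K2 without PC1 (-0.05) and Pde4b without ADI1 (-0.01). Unadjusted p under 0.05 moved more than the calls: fitted on the groups compared alone it held for 91 features in ADI minus PC, 471 in the shared change, 152 in ADI minus Ctr and 1202 in PC minus Ctr (smallest adjusted p 0.0511), and as deposited for 2, 19, 2 and 41. Signal limits the dim arrays: 25.6% of features on ADI3 and 20.6% on PC1 read under 16. The dimmest array in the fit was PO2, of mice given organic potato flour, with a median of 5, 84.2% of features under 16 and 398 of the 430 values set to 1. It enters the spread behind every interval and p-value other than in the fits on the groups compared alone. Rows with blanks were used in the all-rows setting only.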
